A study of Mus musculus with 8 samples.

Results

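Of the 8373 distinct RNA polymerase II (Pol II) contact anchors listed for wild-type (WT) mouse embryonic stem cells, 1552 (18.5%, exact 95% binomial interval 17.7% to 19.4%) overlapped no anchor listed for cells lacking KLF4 (KLF4-KO), and they are called WT-only anchors here. An anchor is a DNA interval at either end of a contact pair, and the members were chosen by position alone: not 1 bp in common with any of the 18293 KLF4-KO anchors. The other 6821 WT anchors overlapped a KLF4-KO anchor and are called shared. The choice rests on the contact data of both genotypes, so the number of WT-only anchors and their distance from KLF4-KO anchors are descriptions with no test. The gene counts from RNA-seq were not used to choose them.

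All cells were of E14, an established male mouse embryonic stem cell line, grown on gelatin in 15% fetal bovine serum with leukaemia inhibitory factor (LIF), in the labels' growth text with the MEK inhibitor PD0325901 at 1 µM and the GSK inhibitor CHIR99021 at 3 µM. The labels' treatment text gives the serum and LIF medium without the inhibitors, so which medium each library came from is unclear. The groups were WT and KLF4-KO cells with no other agent, and each had 2 RNA-seq libraries and 2 Pol II HiChIP libraries. The KLF4-KO RNA libraries carry the letters B and F, and the labels do not say whether these are clones or cultures. Nothing in the labels names separate cultures, so p-values measure the spread between these libraries, which may be technical. The 2 HiChIP libraries of each genotype were deposited as 1 pooled list, so no anchor comparison has a replicate check.

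HiChIP joins DNA ends that lie close together in the nucleus and then enriches for fragments bound by a protein, here Pol II, the enzyme that transcribes protein-coding genes. Its anchors therefore mark places that Pol II occupies, mostly promoters and enhancers, and, at strongly transcribed genes, the region past the 3′ end where Pol II slows and leaves the template. KLF4 is a zinc-finger transcription factor that binds GC-rich DNA, and in mouse embryonic stem cells it acts with OCT4, SOX2, ESRRB and NANOG at genes of the naive pluripotent state.

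The promoters below are those of genes whose start lay in a WT-only anchor and whose RNA is described further on; they are shown as examples of the starts under these anchors and do not stand for the anchors away from starts. Egln3, Dll1, Wdr86 and Bnip3 had more RNA in KLF4-KO cells, Ckb and Ahnak2 had less, and Grb10 was among the most highly expressed genes started by a WT-only anchor. Each sequence is 300 bases from RefSeq on GRCm38.p6, the mm10 assembly, from 250 bases before the gene start to 50 bases after it, 5′ to 3′ on the gene's strand. Capitals mark matches to the KLF4 core GGGNGTGG on either strand.
Egln3 (chr12:54203825-54204124, minus strand): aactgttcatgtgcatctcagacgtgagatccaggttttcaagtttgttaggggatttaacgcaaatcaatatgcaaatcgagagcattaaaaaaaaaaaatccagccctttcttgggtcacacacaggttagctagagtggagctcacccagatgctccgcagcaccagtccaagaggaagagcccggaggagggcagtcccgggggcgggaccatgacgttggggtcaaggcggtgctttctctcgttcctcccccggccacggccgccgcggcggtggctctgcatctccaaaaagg
Dll1 (chr17:15375774-15376073, minus strand): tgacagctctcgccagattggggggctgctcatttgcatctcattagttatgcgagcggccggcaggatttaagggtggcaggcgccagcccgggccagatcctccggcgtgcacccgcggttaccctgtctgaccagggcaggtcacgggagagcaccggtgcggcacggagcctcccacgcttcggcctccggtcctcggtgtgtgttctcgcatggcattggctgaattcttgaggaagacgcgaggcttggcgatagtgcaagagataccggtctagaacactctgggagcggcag
Wdr86 (chr5:24730631-24730930, minus strand): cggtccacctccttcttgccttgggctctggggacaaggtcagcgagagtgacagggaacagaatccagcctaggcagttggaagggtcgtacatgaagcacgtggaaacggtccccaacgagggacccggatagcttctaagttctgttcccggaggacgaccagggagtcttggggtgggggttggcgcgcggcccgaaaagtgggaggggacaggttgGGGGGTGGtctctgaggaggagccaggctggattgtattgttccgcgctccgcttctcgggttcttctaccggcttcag
Bnip3 (chr7:138909457-138909756, minus strand): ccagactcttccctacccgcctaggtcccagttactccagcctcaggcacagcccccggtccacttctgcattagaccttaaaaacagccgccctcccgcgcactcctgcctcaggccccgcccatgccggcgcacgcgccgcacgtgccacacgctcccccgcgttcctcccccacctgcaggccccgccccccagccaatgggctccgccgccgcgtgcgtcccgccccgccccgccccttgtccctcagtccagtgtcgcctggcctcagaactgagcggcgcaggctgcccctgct
Ckb (chr12:111672289-111672588, minus strand): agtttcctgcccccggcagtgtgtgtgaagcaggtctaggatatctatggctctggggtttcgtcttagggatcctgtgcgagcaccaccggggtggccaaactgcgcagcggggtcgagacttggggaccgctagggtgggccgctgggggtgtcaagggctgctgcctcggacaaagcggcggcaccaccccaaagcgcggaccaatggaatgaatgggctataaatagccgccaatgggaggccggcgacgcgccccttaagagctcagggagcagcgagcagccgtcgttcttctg
Ahnak2 (chr12:112795693-112795992, minus strand): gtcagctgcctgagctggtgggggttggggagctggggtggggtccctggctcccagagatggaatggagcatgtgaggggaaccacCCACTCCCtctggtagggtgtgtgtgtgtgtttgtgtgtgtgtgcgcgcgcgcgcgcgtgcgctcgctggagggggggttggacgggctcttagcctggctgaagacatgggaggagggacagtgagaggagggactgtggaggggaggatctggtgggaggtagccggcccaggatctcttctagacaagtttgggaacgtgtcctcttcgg
Grb10 (chr11:12037371-12037670, minus strand): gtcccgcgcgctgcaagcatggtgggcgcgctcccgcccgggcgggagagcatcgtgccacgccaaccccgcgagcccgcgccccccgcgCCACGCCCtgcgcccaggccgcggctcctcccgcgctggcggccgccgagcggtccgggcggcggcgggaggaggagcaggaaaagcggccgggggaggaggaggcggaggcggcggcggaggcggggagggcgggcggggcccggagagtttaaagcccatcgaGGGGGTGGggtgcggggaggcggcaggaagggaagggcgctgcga

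Grb10 had 2 matches, Wdr86 and Ahnak2 had 1 each, and the Egln3, Dll1, Bnip3 and Ckb windows held none. Bnip3 (71.7% G+C, 27 CpG dinucleotides) and Grb10 (80.0%, 45 CpG) were the richest in G+C of the sequences printed, and Egln3 (54.7%, 16 CpG) the poorest. RefSeq listed 562 promoter windows, of 519 genes, with a start inside a WT-only anchor. Their median G+C content was 62.3%, against 63.0% for 6377 windows in shared anchors and 52.7% for all 32851 windows in the table. CpG content was lower than under shared anchors: the median window held 19 CpG against 24, and a ratio of observed to expected CpG of 0.6 or more was found in 62.5% against 86.1% (35.8% of all windows). The KLF4 core was present in 26.5% of windows in WT-only anchors, 23.9% in shared anchors and 17.6% of all windows. The box GGGGCGGGG, a site of SP-family factors, was present in 30.1%, 25.4% and 11.4%. The octamer ATGCAAAT stood in 3.2%, 1.52% and 1.74%, the TATA box TATAAA in 9.43%, 5.83% and 13.6%, and the CTCF core CCACNAGG in 5.34%, 5.79% and 4.99%, each in the same order. All motifs were searched on both strands. The KLF4 core and the GGGGCGGGG box are both runs rich in G and can lie in the same stretch. A match is a string of letters and not a bound site, and these shares were not tested.

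The contact lists differed in size. The KLF4-KO list held 401726 paired-end tags (PETs, read pairs that join 2 places) in 118475 pairs and the WT list 35189 PETs in 19914 pairs, an 11.4-fold difference. KLF4-KO anchors covered 67 Mb with a median width of 2932 bp, and WT anchors 19 Mb with a median width of 1999 bp. In the other direction, 64.3% of KLF4-KO anchors overlapped no WT anchor. The 4 RNA libraries held 8287497 to 9762190 counts assigned to genes. Klf4 had 2882 and 2421 counts in WT replicates 1 and 2 and 0 in both KLF4-KO libraries. Set against a floor of 3 counts over the KLF4-KO libraries, its scaled count (CPM, counts per 1e6) was at least 1595.4-fold lower. Klf4 itself carried 1 shared WT anchor, and a WT-only anchor of 4 PETs lay within 1 kb past its end (chromosome 4, 55525219 to 55526849), outside the gene, with the nearest KLF4-KO anchor 2497 bp away. Embryonic stem cell markers summed to 6040 to 8030 CPM in the 4 libraries, fibroblast and feeder markers to 17.9 to 25.8 CPM with Postn and Lum at 0 counts, and primitive endoderm markers to 5.57 to 6.95 CPM. These sums held opposite moves of single genes. Among stem cell markers Utf1 had 52.4 and 89.3 CPM in WT and 369.1 and 368.7 CPM in KLF4-KO. Nanog had 784 and 774 CPM in WT and 621 and 572 CPM in KLF4-KO. Among fibroblast markers Thy1 had 3.72 and 4.79 CPM in WT and 9.82 and 8.41 CPM in KLF4-KO. Pdgfrb had 19.2 and 19.5 CPM in WT and 11.02 and 7.34 CPM in KLF4-KO. Among endoderm markers Gata6 had 0.425 and 0.326 CPM in WT and 2.99 and 2.84 CPM in KLF4-KO. Gata4 had 3.93 and 5.22 CPM in WT and 2.04 and 0.474 CPM in KLF4-KO. The 4 tested genes of the Y chromosome were at 0 in both KLF4-KO RNA libraries, and their list summed to 205 and 138 CPM in WT. All 7 WT anchors on the Y chromosome nevertheless overlapped a KLF4-KO anchor, so none of them is WT-only. Whether the KLF4-KO RNA and HiChIP libraries came from the same clone is not known. KLF4-KO anchors and KLF4-KO RNA set side by side below may therefore be of different cells.

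WT-only anchors rested on few read pairs. Their median was 3 PETs (quartiles 2 and 6, highest 55), and shared anchors had a median of 4 (quartiles 2 and 8, highest 225). A single PET was all the evidence for 317 WT-only anchors (20.4%) and for 910 shared anchors (13.3%), and 177 WT-only anchors (11.4%) had 10 PETs or more against 1394 shared anchors (20.4%). Read the other way, 25.8% of WT anchors with 1 PET were WT-only, 20.1% of those with 2 to 4, 17.4% of those with 5 to 9, 11.3% of those with 10 or more, and 2.99% (7 of 234) of those with 30 or more. Both kinds had a median of 3 partner anchors, and 4.38% of WT-only anchors were paired only with themselves, against 2.8% of shared anchors. The median width was 1871.5 bp against 2034 bp. By chromosome the WT-only share ran from 14.7% on chromosome 6 to 25.4% (61 of 240) on chromosome 18, with chromosome 10 at 23.9% and the Y chromosome at 0 of 7.

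The position relative to genes differed between the kinds. A gene start lay within 1 kb of 509 WT-only anchors (32.8%, interval 30.5% to 35.2%) and of 4696 shared anchors (68.8%, 67.7% to 69.9%). A gene end, within the same distance and with no start nearby, marked 238 WT-only anchors (15.3%, 13.6% to 17.2%) and 258 shared anchors (3.78%, 3.34% to 4.26%). A further 242 WT-only anchors (15.6%) lay inside a gene away from both ends, against 6.1% of shared anchors, and 273 (17.6%) touched no gene, against 6.76%. The remaining 290 (18.7%, shared 14.5%) touched only genes for which no start was listed, a class added after the tables were seen. Without it the shares at starts were 40.3% and 80.5%, and at ends 18.9% and 4.42%. These intervals cover counting error only. In terms of all WT anchors, 9.78% of 5205 at starts were WT-only, 48% of 496 at ends, 36.8% of 658 inside genes and 37.2% of 734 outside genes.

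**Figure D1:**
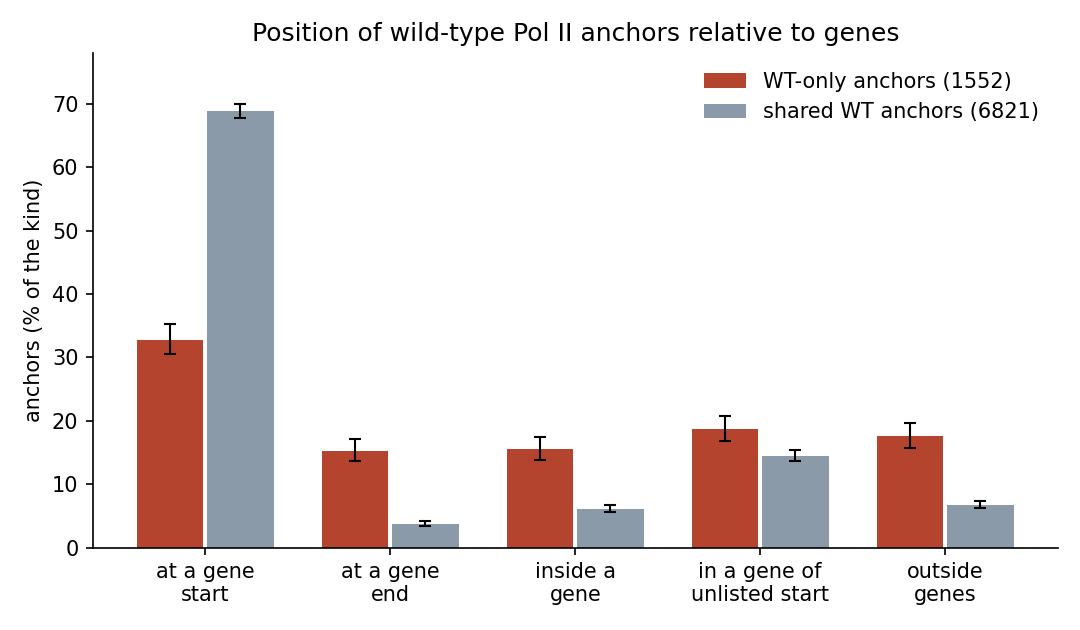
Share of WT-only and of shared WT anchors (vertical axis, % of the kind) by position relative to genes; error bars are exact 95% binomial intervals for counting error. Starts account for 32.8% of WT-only and 68.8% of shared anchors, and ends for 15.3% and 3.78%.

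The share at gene ends was larger among the WT-only anchors with more PETs. It was 7.57% of those with 1 PET, 11% with 2 to 4, 22.9% with 5 to 9 and 27.7% with 10 or more, while the same classes of shared anchors gave 1.54%, 2.53%, 2.93% and 8.75%. The share at starts was 35.3% among WT-only anchors of 1 PET and 28.2% among those of 10 or more. Genes with a WT-only anchor at their end were highly expressed, with a median of 96.9 CPM in WT over 246 tested genes, close to 97.1 CPM for the 254 with a shared anchor there. Genes with a WT-only anchor at their start had a median of 10.9 CPM (431 genes), against 50 CPM for 5041 genes with a shared anchor at their start. Of the WT-only end anchors, 126 (52.9%) were paired with an anchor at the start of the same gene, against 150 (58.1%) of shared end anchors.

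Most WT-only anchors had a KLF4-KO anchor in the neighbourhood. The median distance to the nearest was 15.9 kb (quartiles 4.91 and 48.7 kb, highest 1550 kb). It was 5.4 kb for anchors at gene ends, 13.4 kb inside genes, 18.3 kb outside genes and 27.5 kb at gene starts. Just outside the threshold, 32 WT-only anchors abutted a KLF4-KO anchor, 43 lay under 100 bp from one and 113 (7.28%) under 1 kb. Just inside it, the smallest overlap of a shared anchor was 214 bp and 90.6% of shared anchors were covered over their whole width. A KLF4-KO anchor lay within 5 kb of 395 WT-only anchors (25.5%), on both sides for 66. At the other extreme, 197 (12.7%) had none within 100 kb and 7 had none within 1 Mb.

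**Figure D2:**
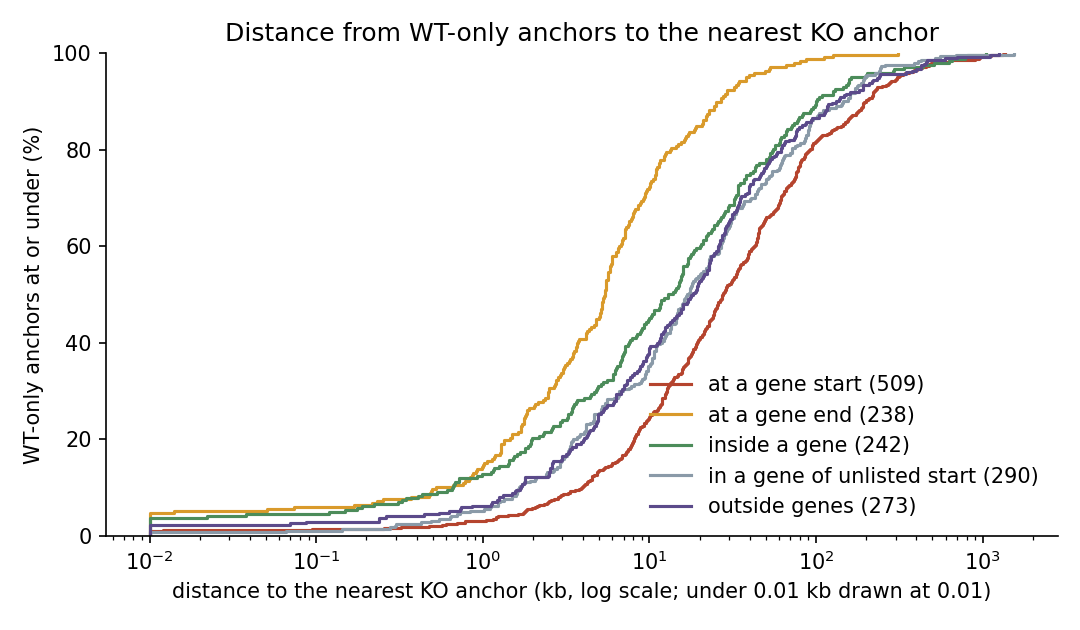
Cumulative share of WT-only anchors (vertical axis, %) by distance to the nearest KLF4-KO anchor (horizontal axis, kb, log scale), drawn by position relative to genes. The curve for gene ends lies furthest left (median 5.4 kb) and that for gene starts furthest right (median 27.5 kb).

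In KLF4-KO cells the same gene could carry an anchor at another place. Of the 1225 WT-only anchors that touched a gene, 572 (46.7%) had a KLF4-KO anchor elsewhere in that gene. This held for 149 of 184 at ends (81%), 171 of 242 inside genes (70.7%) and 139 of 508 at starts (27.4%). Where the start was listed, the start of the same gene carried a KLF4-KO anchor for 141 of 173 end anchors (81.5%) and 139 of 242 inside anchors (57.4%).

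The WT-only anchor with the most PETs lay at the end of Actg1, which encodes cytoplasmic gamma-actin (chromosome 11, 120343900 to 120346063, 55 PETs). It had 16 PETs with the anchor at the Actg1 start 4.06 kb away, and that start anchor had 47 PETs in WT and 64 in KLF4-KO. The nearest KLF4-KO anchor was this start anchor, 905 bp from the WT-only interval. Actg1 RNA was 793 and 915 CPM in WT and 729 and 642 CPM in KLF4-KO, a log2 difference of -0.32 ± 0.26 (SE) with an adjusted p of 0.50 by edgeR's quasi-likelihood test. The KLF4-KO libraries lay below both WT libraries, but the difference did not pass the test.

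Other highly expressed housekeeping genes followed. The end of Srsf3, a splicing factor gene (chromosome 17, 29042597 to 29048941), had 53 PETs, of which 11 joined it to its own start 13.0 kb away. The end of Ubb, which encodes polyubiquitin (chromosome 11, 62552958 to 62556098), had 41 PETs and abutted a KLF4-KO anchor of 200 PETs at the Ubb start. Anchors past the ends of Naca (27 PETs) and Ube2s (26 PETs) lay 2813 bp and 1331 bp from KLF4-KO anchors with 250 and 132 PETs. RNA of Srsf3 (455 and 478 CPM in WT, 569 and 584 in KLF4-KO, edgeR adjusted p 0.49) and Ubb (757 and 1100 against 838 and 747, 0.68) did not pass the test, nor did that of Naca (412 and 698 against 674 and 515, 0.88) and Ube2s (364 and 643 against 661 and 473, 0.80).

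A few strong WT-only anchors were of another kind. An interval of chromosome 2 with no annotated gene (98661707 to 98668220) had 48 PETs, 30 of them within itself, and each of its 18 partners was joined by 1 PET, such as the Trdmt1 start 85100 kb away. Its nearest KLF4-KO anchor was 231062 bp off. Whether read pairs map uniquely to this interval was not tested, so its PETs are uncertain. The U1 small nuclear RNA gene Rnu1a1, inside Tex14 (chromosome 11, 87422053 to 87423933, 37 PETs), had 15 PETs with an anchor 3.51 kb away that had 53 PETs in WT and 7 in KLF4-KO. Here the partner was also weaker in the KLF4-KO list, which held more PETs in all. An anchor covering the Rcn3 start and the Fcgrt end (chromosome 7, 45091169 to 45095029, 36 PETs) had its nearest KLF4-KO anchor 23252 bp off. Within Zmynd8, which encodes a chromatin reader, 2 WT-only anchors of 28 and 26 PETs were joined to each other by 10 PETs over 5.42 kb, with KLF4-KO anchors of 176 and 217 PETs 3267 and 4377 bp away. The anchor at Lhb, which also lay at the end of the AAA+ ATPase gene Ruvbl2, had 25 PETs. None of the tested genes at these other anchors (Tex14, Rcn3, Fcgrt, Zmynd8, Lhb and Ruvbl2) passed the test, and Rnu1a1 had 0 counts in every library.

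WT-only anchors were mostly joined to shared ones. Of 16191 WT pairs between different anchors, 4479 (27.7%) had a WT-only end, 4074 with 1 and 405 with 2. In the pairs with 1 WT-only end the partner lay at a gene start in 2816 (69.1%), and 1394 WT-only anchors had a shared partner. The median span was 247 kb with 1 WT-only end, 166 kb with 2 and 263 kb with none, and 17.8% of the pairs with 2 spanned under 20 kb, against 11.9% and 10.4%. The strongest pair had 14 PETs with 2 WT-only ends, 16 with 1 and 47 with none. The 2801 shared anchors paired with a WT-only anchor had a median of 7 PETs in WT and 32 in KLF4-KO, and the other 4020 had 3 and 20. The median ratio of KLF4-KO to WT PETs was 4.6 and 6.0, and the larger WT value of the former is its denominator. For shared anchors at the start of genes with a WT-only end anchor the median ratio was 5.13 (126 anchors), and with a shared end anchor 7.17 (163 anchors). These ratios, added after the tables were seen, have no replicates and were not tested.

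Some WT-only anchors were neighbours. Counting consecutive WT anchors along a chromosome, 965 WT-only anchors stood alone, 197 runs held 2, 38 held 3 and 15 held 4 or more (79 anchors). The longest held 10 anchors over 385.6 kb of chromosome 5 (113280023 to 113665587), from Sgsm1 to beyond Wscd2, with 70 PETs in all. Within it 13 pairs joined the WT-only anchors to each other by 19 PETs, and 3 KLF4-KO anchors, of 18, 22 and 92 PETs, lay between them. Sgsm1, which encodes a modulator of small G protein signalling, had 21.1 and 19.5 CPM in WT and 17.1 and 17.9 CPM in KLF4-KO (edgeR adjusted p 0.70), and Wscd2 had 13.1 and 14.1 CPM in WT and 8.86 and 7.11 CPM in KLF4-KO (0.21). Both KLF4-KO libraries were below both WT libraries for each gene, without passing the test.

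**Figure D3:**
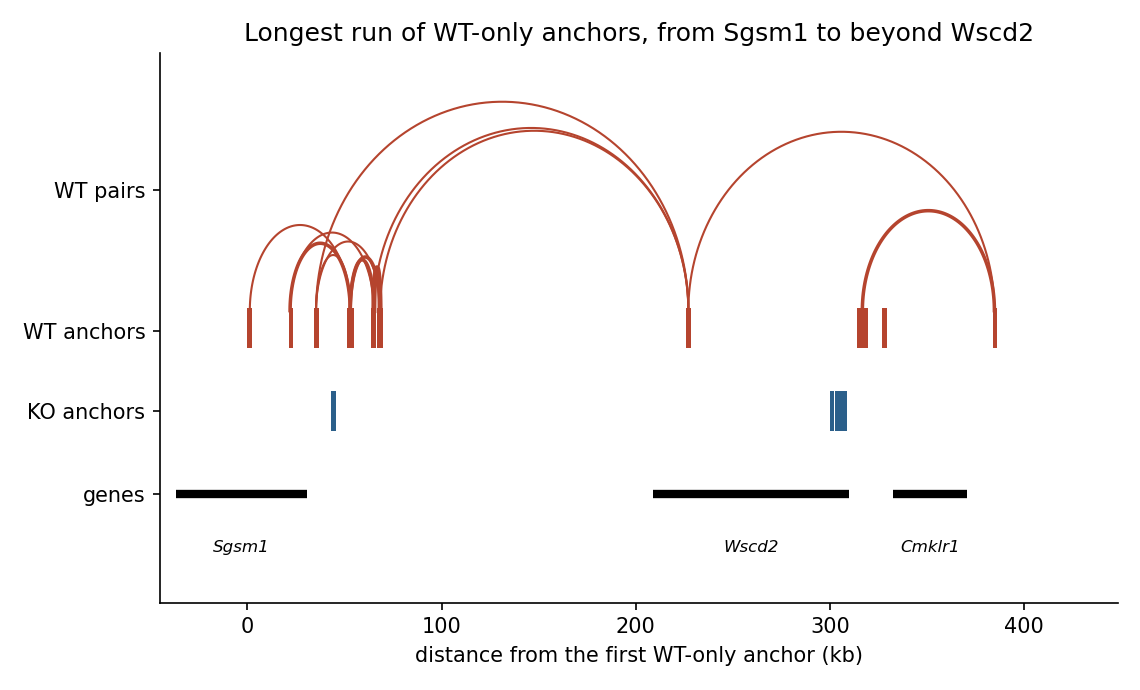
Map of the longest run of WT-only anchors (red) with the KLF4-KO anchors between them (blue), the WT pairs joining WT-only anchors (arcs, thicker with more PETs) and annotated genes over 5 kb long (black), by distance from the first anchor in kb. The 10 anchors span 385.6 kb, and 3 of the 13 arcs run from the Wscd2 anchor back to anchors between Sgsm1 and Wscd2.

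Of the other long runs, 1 of 7 anchors covered 2818 kb of chromosome 14 (4498275 to 7316077), a region of predicted genes in many similar copies, and held no KLF4-KO anchor. Its gene Gm3636 had 4 and 2 counts in WT and 42 and 23 in KLF4-KO (edgeR adjusted p 0.020), and shares sequence with its neighbours, so this value is uncertain. Another run of 7 lay over the gamma-protocadherin genes and Diaph1 on chromosome 18 (208.9 kb, 41 PETs). Diaph1, which encodes an actin-nucleating formin, rose from 129 and 120 CPM in WT to 272 and 221 CPM in KLF4-KO (log2 difference 0.98 ± 0.24, edgeR adjusted p 0.042). No gamma-protocadherin gene of the run passed the test. Among those tested the log2 difference ran from -2.14 (Pcdhgb5, edgeR adjusted p 0.089) to 0.15 (Pcdhgb8, 0.92), the only positive value. A run of 6 lay in the type I interferon cluster of chromosome 4 (88756180 to 88803732, 47.55 kb, 30 PETs), with 4 pairs of 13 PETs in all within it and no KLF4-KO anchor. Ifnz, the interferon zeta gene, belongs to a family of similar copies, and its neighbours Gm13284, Gm13286 and Gm13287 had 0 counts in every RNA library. These runs were described because of their length, after the table was seen.

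WT-only anchors touched 1474 gene symbols, that is, they overlapped the gene or the 1 kb before its start. These were 1163 protein-coding genes, 205 long non-coding RNA genes, 68 pseudogenes and other classes, and 82 were touched by 2 or more WT-only anchors. RNA of 1031 could be tested, and 443 had too few counts or no match in the count tables. At an edgeR false discovery rate of 0.05, 1288 of all 15517 tested genes (8.3%) were called, 460 higher in KLF4-KO (2.96%) and 828 lower (5.34%). Among the 1031 genes touched by WT-only anchors 118 were called (11.4%), 63 higher (6.11%) and 55 lower (5.33%). The median log2 difference was 0.0121, against -0.00149 over all tested genes. So RNA moved both ways where an anchor was absent from the KLF4-KO list.

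The larger share of calls was found in genes touched by WT-only anchors alone. Of those 705 genes, 47 were higher and 43 lower (12.8% called). Of 326 genes that also carried a shared anchor, 16 were higher and 12 lower (8.59%). Of 6251 genes touched by shared anchors alone, 144 were higher and 185 lower (5.26%), and of 6854 with no WT anchor, 228 were higher and 536 lower (11.1%). The groups differed in level: the median in WT was 10.7 CPM with WT-only anchors alone, 75.2 CPM with both, 46.3 CPM with shared anchors alone and 10.7 CPM with none. The part of expression level in these shares was not tested. Where the WT-only anchor lay at a listed gene start, 35 of 431 genes were higher and 26 lower (14.2%). Of the other 600 touched genes, 28 were higher and 29 lower (9.5%). These 600 include genes with no listed start, so some of their anchors may lie at a start. Calls higher in KLF4-KO were 53.4% of those among touched genes and 35.7% of those over all tested genes. The balance among touched genes depended on single libraries: without KLF4-KO library B, or without WT replicate 2, more calls were lower than higher.

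**Figure D4:**
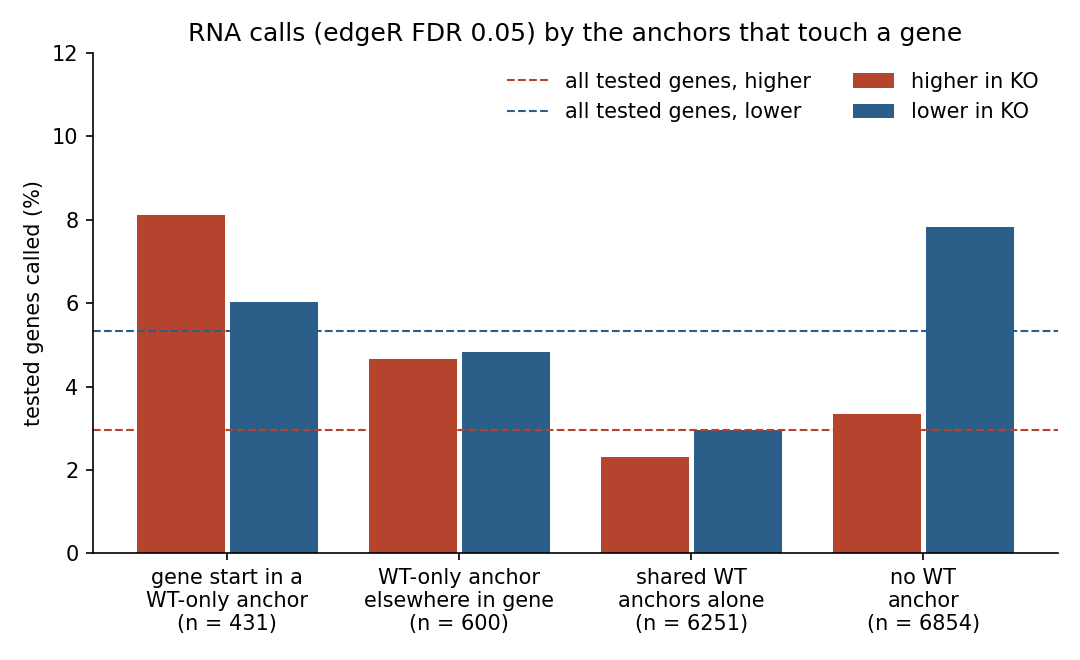
Share of tested genes called higher or lower in KLF4-KO by edgeR (vertical axis, %), for genes grouped by the WT anchors that touch them, with the number tested under each group. Genes with their start in a WT-only anchor show 8.12% higher and 6.03% lower, and the other genes touched by WT-only anchors 4.67% and 4.83%. The bars labelled as elsewhere in the gene include genes with no listed start. Genes touched by shared anchors alone show 2.3% and 2.96%.

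A KLF4-KO anchor was present somewhere in 25 of the 63 higher genes (39.7%) and 23 of the 55 lower genes (41.8%), against 506 of all 1031 tested genes touched by WT-only anchors (49.1%). In 27 of the higher genes (42.9%) the start lay in a WT-only anchor and the whole gene carried no KLF4-KO anchor, as in 324 of the 1031 (31.4%); their median level was 6.06 CPM in WT and 23.7 CPM in KLF4-KO. In 16 of the lower genes (29.1%) the same held, with medians of 28.4 and 7.3 CPM. Examples from these 27 and 16 genes, chosen after their values were seen, were Mycn, the MYC-family proto-oncogene, at 69.0 and 57.6 CPM in WT and 170.8 and 167 CPM in KLF4-KO (log2 difference 1.42 ± 0.24, edgeR adjusted p 0.012), whose anchor had 12 PETs and lay 304 kb from the nearest KLF4-KO anchor. Gldc, the decarboxylase of the glycine cleavage system, rose from 98.4 and 84.1 CPM to 194.5 and 185.8 CPM (1.06 ± 0.23, 0.030). Neurod1, a proneural transcription factor gene, rose from 2.34 and 1.74 to 12.2 and 8.41 CPM (edgeR adjusted p 0.019), and Ina, a neuronal intermediate filament gene, from 5.31 and 3.70 to 22.4 and 15.2 CPM (0.019). The Neurod1 anchor rested on 1 PET and the Ina anchor on 9. Btg2, an anti-proliferative gene, fell from 73.4 and 76.2 to 23.0 and 23.9 CPM (-1.67 ± 0.25, 0.0087), with the nearest KLF4-KO anchor 221 kb away. Id4, an inhibitor of basic helix-loop-helix factors, fell from 19.2 and 15.9 to 4.43 and 3.67 CPM (-2.11 ± 0.36, 0.013), with the nearest 226 kb away.

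The genes with the largest rise included several with the start in a WT-only anchor. Spn, which encodes the leukocyte surface sialoglycoprotein CD43, was nearly absent in WT (0.213 and 0.326 CPM) and stood at 7.91 and 12.3 CPM in KLF4-KO (log2 difference 5.16 ± 0.60, edgeR adjusted p 0.0038). Its anchor of 8 PETs was joined by 3 PETs to the Cd2bp2 start 58.8 kb away, and no KLF4-KO anchor lay in the gene. Dll1, a Notch ligand, rose from 2.13 and 0.979 CPM to 36.1 and 11.3 CPM (3.91 ± 0.66, 0.012). The 2 KLF4-KO libraries differed more than 3-fold, yet both lay above WT, and the anchor behind it was 1 PET within itself. Wdr86 rose from 1.49 and 1.31 to 16.3 and 10.5 CPM (3.25 ± 0.45, 0.0068), with its promoter window carrying 1 KLF4 core. Il17d, an interleukin-17 family cytokine, rose from 1.49 and 1.52 to 9.58 and 11.8 CPM (2.82 ± 0.43, 0.0095).

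Others rose with the WT-only anchor elsewhere or with an unlisted start. Spry4, which encodes a feedback inhibitor of receptor tyrosine kinase signalling, carried 3 WT-only anchors (24 PETs together), 2 of them joined by 4 PETs over 5.74 kb. It rose from 3.40 and 2.39 CPM to 43.1 and 106.6 CPM (4.68 ± 0.51, edgeR adjusted p 0.0032). A shared anchor and a KLF4-KO anchor of 48 PETs lay in the same gene. Adam23, a cell adhesion gene, rose from 17.4 and 13.1 to 112.1 and 153.9 CPM (3.12 ± 0.30, 0.0023) with a WT-only anchor of 1 PET and KLF4-KO anchors at its start. Kifc3, a kinesin gene, rose from 9.67 and 11.1 to 60.6 and 78.1 CPM (2.74 ± 0.29, 0.0031), and Bcl6b, a transcriptional repressor gene, from 0.319 and 0.653 to 5.15 and 5.92 CPM (3.48 ± 0.59, 0.012). Bcl6b and Il17d have no KLF4-KO anchor in the gene, whereas Kifc3 has 6.

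Among the lower genes Ahnak2, which encodes a very large scaffold protein, carried 2 WT-only anchors, 1 at its start, abutting a KLF4-KO anchor of 14 PETs. It fell from 28.7 and 25.9 CPM to 1.08 and 1.30 CPM (-4.50 ± 0.39, edgeR adjusted p 0.0017). Ckb, brain-type creatine kinase, was among the 5 most highly expressed genes with their start in a WT-only anchor, and it fell from 715 and 1259 CPM to 160 and 83.1 CPM (-3.02 ± 0.42, 0.0066). Its anchor had 4 PETs, the gene carried no KLF4-KO anchor, and the nearest, at Trmt61a, was 3353 bp away. Hspb8, a small heat shock protein gene, had WT-only anchors at both ends and fell from 145.7 and 175.4 to 33.7 and 19.9 CPM (-2.58 ± 0.32, 0.0042). Tinagl1, an extracellular matrix gene, fell from 20.9 and 25.2 to 2.87 and 1.30 CPM (-3.46 ± 0.45, 0.0053), with no KLF4-KO anchor within 63.8 kb.

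Metabolic and lysosomal genes were also among them. Ephx2, soluble epoxide hydrolase, fell from 136.2 and 165.6 to 21.9 and 10.8 CPM (-3.21 ± 0.37, edgeR adjusted p 0.0038). Cdo1, cysteine dioxygenase, fell from 56.5 and 62.0 to 5.39 and 4.62 CPM (-3.56 ± 0.30, 0.0015). Hexa, a lysosomal hexosaminidase subunit, fell from 196.2 and 277.3 to 40.1 and 24.4 CPM (-2.87 ± 0.33, 0.0038), and A4galt, a globoside-synthesis galactosyltransferase, from 41.0 and 56.8 to 8.38 and 8.65 CPM (-2.52 ± 0.31, 0.0042). S1pr1, a sphingosine-1-phosphate receptor, fell from 5.42 and 5.76 to 0.120 and 0.474 CPM (-4.17 ± 0.67, 0.011). Pkd2l1, a cation channel gene, had 105 counts over the WT libraries and 2 over the KLF4-KO libraries, a 47.4-fold ratio with a counting interval of 12.8 to 396 (edgeR adjusted p 0.0097). Its WT-only anchor of 1 PET lay at the Bloc1s2 start and reached only the edge of Pkd2l1. The anchors of A4galt and S1pr1 also had 1 PET, that of S1pr1 within itself. Those of Ephx2 and Hexa had 2 PETs each, and that of Cdo1 had 5. In every lower gene of this paragraph and the one before, both KLF4-KO libraries lay below both WT libraries, since that was part of the rule for naming them.

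**Figure D5:**
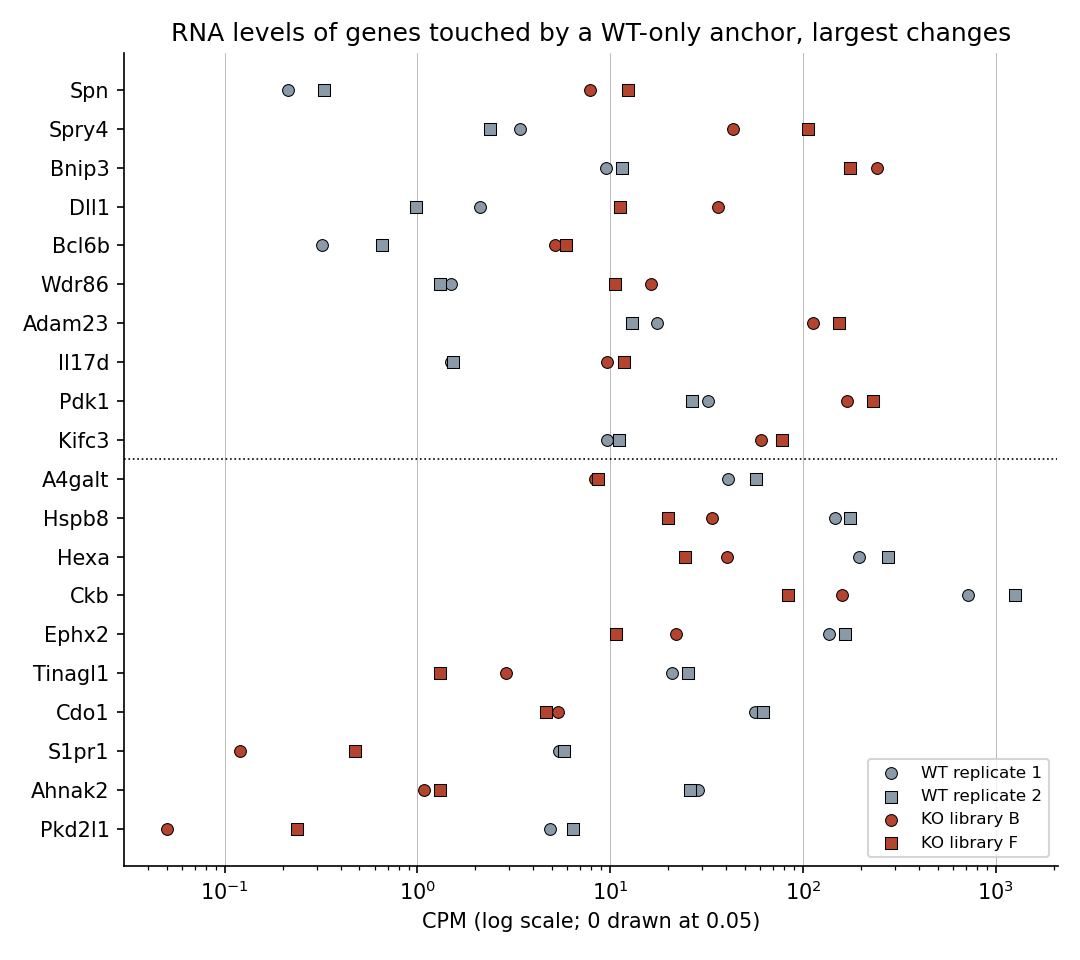
RNA level in each of the 4 libraries (horizontal axis, CPM, log scale, 0 drawn at 0.05) of the 10 higher and 10 lower genes with the largest change among those touched by a WT-only anchor, 1 gene per line. WT and KLF4-KO points do not overlap for any gene, which the naming rule required; Spn and Bcl6b lie under 1 CPM in WT.

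Not every highly expressed gene with a WT-only start passed the test. Chchd10 and Mmp11 start back to back from 1 WT-only anchor of 18 PETs. Chchd10, a mitochondrial protein gene, had 692 and 1368 CPM in WT and 782 and 473 CPM in KLF4-KO, and Mmp11, a metalloproteinase gene, had 681 and 1237 CPM and 769 and 457 CPM. The values of this pair were nearly equal in every library; the sources used here do not say whether counting used strand, so each may hold reads of the other. The groups overlapped, and neither passed the test (edgeR adjusted p 0.31 and 0.34). Pfkp, platelet-type phosphofructokinase, had 419 and 369 CPM in WT and 610 and 651 CPM in KLF4-KO (0.68 ± 0.24, 0.13). Grb10, an imprinted growth-factor receptor adaptor gene, had 226.1 and 157.2 CPM in WT and 267.8 and 274.8 CPM in KLF4-KO (0.50 ± 0.26, 0.29). Both KLF4-KO libraries of each gene were above WT without passing the test.

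The hypoxia and glycolysis genes were the list most often touched. WT-only anchors touched 7 of its 20 genes, against 7.29% of all tested genes with a position, and shared anchors touched 14. EdgeR called 13 of its 20 tested genes higher and 0 lower (15 and 1 at an unadjusted p under 0.05, and 14 and 0 by DESeq2). Over all tested genes 2.96% were called higher and 5.34% lower by edgeR. Bnip3, a mitophagy receptor gene, had 2 WT-only anchors of 3 PETs in all, 1 at its start, and rose from 9.56 and 11.5 CPM to 242.1 and 175.2 CPM (4.30 ± 0.30, edgeR adjusted p 0.00086). Egln3, a prolyl hydroxylase that marks HIF-alpha for degradation, rose from 7.01 and 7.18 to 44.1 and 40.0 CPM (2.56 ± 0.29, 0.0038), with its start in a WT-only anchor and no KLF4-KO anchor within 38.9 kb. Pdk1, pyruvate dehydrogenase kinase, rose from 32.1 and 26.4 to 168.5 and 229.5 CPM (2.77 ± 0.28, 0.0025). Ldha, lactate dehydrogenase A, rose from 328 and 426 to 1689 and 1463 CPM (2.06 ± 0.28, 0.0064), and the mutase gene Pgam1 from 367 and 346 to 875 and 828 CPM (1.26 ± 0.25, 0.021). Aldoc, an aldolase gene, rose from 6.59 and 8.27 to 35.6 and 18.7 CPM (1.87 ± 0.40, 0.027). Pfkp, given above, was the seventh. Pdk1, Ldha and Pgam1 had the WT-only anchor at their end and a KLF4-KO anchor at their start. Aldoc did not pass without KLF4-KO library B (1.33, adjusted p 0.11), and Pgam1 did not pass without library B (1.21, 0.13) or F (1.30, 0.11).

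Naive pluripotency genes were touched by WT-only anchors in 5 of 20 cases (7.29% over all tested genes with a position), and by shared anchors in 16. Of the list's 20 tested genes 0 were higher and 6 lower by edgeR (1 and 8 at an unadjusted p under 0.05, and 1 and 7 by DESeq2). The shares over all tested genes were 2.96% and 5.34% by edgeR. Tdh, threonine dehydrogenase, fell from 438 and 553 CPM to 135.7 and 132.1 CPM (-1.89 ± 0.25, edgeR adjusted p 0.0058). Esrrb, an orphan nuclear receptor gene of the naive network, had a WT-only anchor of 4 PETs at its end beside 7 shared anchors, and its RNA was 778 and 662 CPM in WT and 602 and 582 CPM in KLF4-KO (0.54). Nr5a2, another nuclear receptor gene, had 78.2 and 53.8 CPM in WT and 32.9 and 32.6 CPM in KLF4-KO (-1.01 ± 0.28, 0.063), and Gbx2, a homeobox gene, 13.2 and 16.1 CPM against 25.3 and 63.4 CPM (1.60 ± 0.43, 0.060). Both groups were apart for these genes but missed the threshold by edgeR; DESeq2 called them, with adjusted p 0.032 and 0.0047. Socs3, a feedback inhibitor of LIF signalling, had 133.8 and 152.1 CPM against 173.6 and 152 CPM (0.67).

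The other lists were touched little. Of 20 early neural genes, WT-only anchors touched Dll1, described above, and Hes5, with 0 to 5 counts per library and not tested, while 3 of 12 tested genes of that list were higher and 3 lower. WT-only anchors touched 0 of 19 genes of the formative and primed epiblast, of which edgeR called 13 of 18 tested higher and 0 lower (15 and 0 unadjusted, 14 and 0 by DESeq2). They also touched 0 of 15 genes of the two-cell-like state, of which edgeR called 0 of 10 tested higher and 8 lower (0 and 10 unadjusted, 0 and 8 by DESeq2). Over all tested genes with a position, WT-only anchors touched 7.29%, and no WT or KLF4-KO anchor of any kind touched the two-cell-like list. Of 20 genes of the Pol II machinery, WT-only anchors touched 1 (Polr2h, at its end), and of 21 genes of cohesin, CTCF, Mediator and other loop factors they touched 2 (Pds5a and Med1), with 0 called in either list by edgeR, DESeq2 or limma voom (1 and 2 higher at an unadjusted edgeR p under 0.05). Among fibroblast markers they touched Pdgfrb, at 19.2 and 19.5 CPM in WT and 11.02 and 7.34 CPM in KLF4-KO (edgeR adjusted p 0.096).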

How the data were processed

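RNA counts per gene were deposited by the authors, 1 table for each of 2 WT and 2 KLF4-KO libraries; the submitters' processing notes name, with no role, HiC-Pro 2.11.4 along with DESeq2 1.18.1, HTSeq 0.9.1 and the aligner HISAT2 2.1.0. The 2 HiChIP libraries of each genotype were deposited by the authors as 1 pooled list of anchor pairs with PET counts on mm10; which tool called the pairs is not given in the sources. Records assigned to no gene, 64.0% to 65.5% per library, were left out. Counts were tested with edgeR 4.0.16 (R 4.3.3; filterByExpr, TMM, quasi-likelihood F-test, genotype only, Benjamini-Hochberg over 15517 of 52636 genes); CPM use TMM-scaled totals. On simulated counts of 15096 genes, 22 of 100 planted 2-fold and 94 of 100 planted 4-fold changes were recovered, with 7 unchanged genes called, so changes near 2-fold are often missed. Symbols, spans and starts came from RefSeq tables (GRCm38.p6); genes with no listed start have no strand here.

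The members and the gene lists were chosen with earlier results of these data known. Named genes were those at the 12 WT-only anchors with most PETs, the 10 higher and 10 lower called genes with the largest change (mean of 2 CPM or more, libraries apart, no predicted genes, clones or pseudogenes), the 5 highest-level genes started by a WT-only anchor, touched list genes, and Klf4; some named items are not reported here. DESeq2 1.42.0, limma voom 3.58.1, other scalings, filters, overlap rules and left-out libraries were alternatives.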

Additional observations from a re-analysis of the deposited data

How the results depend on the processing

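The share of WT anchors that were WT-only followed the overlap rule and the PETs required. It was 19.7% when KLF4-KO anchors had to cover 50% of the WT anchor, and 13.8% when a KLF4-KO anchor within 5 kb counted as shared. It was 26.2% against KLF4-KO anchors in a pair of 2 PETs or more. Against those of 5 PETs or more it was 48.8% (4090 anchors). For WT anchors in a pair of 2 PETs or more it was 15.8% (662 anchors). The share of WT-only anchors at gene starts was 46.0% within 5 kb (shared 74.1%). For WT anchors in a pair of 2 PETs or more it was 26.3% (shared 67.7%). It was below that of shared anchors at each setting.

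RNA calls depended on the filter for low counts: with no filter 2 genes were called in all and 0 touched by WT-only anchors, 0 higher and 0 lower, although 332 touched genes and 4021 of all genes had an unadjusted p under 0.05; the cause was not tested. Leaving out 1 library in turn gave 1013 to 2517 calls in all and 97 to 195 among touched genes, 39 to 103 higher and 41 to 92 lower, with a median log2 difference of -0.0856 to 0.013. The high ends of these counts came without WT replicate 1, which gave 103 higher and 92 lower; without WT replicate 2 there were 1562 calls in all and 144 among touched genes, 59 higher and 85 lower, and without KLF4-KO library B 39 higher. Taking only genes touched at their start gave 61 calls, 35 higher and 26 lower, and a median of -0.0698, from fewer genes. DESeq2 called 168 touched genes (89 higher, 79 lower), or 16.3%, against 1644 (10.6%) of all tested genes. In genes that did not pass the test the direction changed when a library was left out: the log2 difference of Lhb ran from -0.48 (without KLF4-KO library B; -0.41 without WT replicate 1) to 0.91, that of Polr2h from -0.16 (WT replicate 1; -0.06, library B) to 0.61, and that of Fcgrt from -0.35 to 0.29 (WT replicate 2; 0.20, library F). Med1 ran from -0.01 (WT replicate 2) to 0.49, Ubb reached 0.03 (WT replicate 2), and without library B Rcn3 was -0.16 and Zmynd8 -0.13. No paired analysis was possible because the KLF4-KO columns carry letters and no replicate numbers, so the replicate block was not run. An interval absent from a list may have had too few PETs to be listed, and 20.4% of WT-only anchors rest on 1 PET. The list that lacks the WT-only anchors, that of KLF4-KO, was the larger, with 11.4-fold more PETs. These are PETs of the listed pairs, and the sequencing depth of the libraries was not compared. The part of depth in the anchor counts was not tested.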
